A study of Mus musculus with 24 samples.

Results

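The cytosolic glutathione S-transferases (GSTs) considered here are 10 enzymes of 5 classes, chosen by name: *Gsta2*, *Gsta3* and *Gsta4* (alpha), *Gstm1*, *Gstm3* and *Gstm5* (mu), *Gstp1* (pi), *Gstt1* and *Gstt3* (theta) and *Gsto1* (omega). All 10 were measured, by 14 probes, among 27958 genes tested. Their mRNA was measured on arrays in 24 whole kidneys of male mice aged 23 to 30 days, which the labels call young adult, 1 kidney per array. The 6 control kidneys were *mgb+/+*, and the 18 *mgb-/-* kidneys came from the megabladder line, whose homozygotes form an atonic bladder and have hydronephrosis from before birth. The *mgb-/-* kidneys had been graded by ultrasound of the remaining parenchyma, with 7 called mild, 5 moderate and 6 severe. No kidney received a drug or other treatment according to the labels. The model is a single mutant line, a whole kidney mixes all renal cell types, and the labels do not say which kidneys came from the same mouse, so the p-values measure the spread between kidneys.

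GSTs join reduced glutathione to electrophilic compounds such as drugs, quinones and the aldehydes that lipid peroxidation leaves behind. The conjugate is pumped out of the cell, its glutathione part is trimmed by peptidases of the proximal tubule brush border, and the product is acetylated and leaves in the urine as a mercapturate. Alpha class enzymes are abundant in the proximal tubule and also reduce lipid hydroperoxides. Many GST genes carry an antioxidant response element, a short motif bound by the transcription factor Nrf2.

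Levels are log2 intensities relative to the 75th percentile of the array, so a level of 0 equals that percentile and a difference of 1 is 2-fold. The share of probes well above background ran from 55.1% to 70.7% over arrays, and the probe used for each of the 10 genes was well above it on all 24. The arrays lay on 3 slides, each with 2 control and 6 *mgb-/-* kidneys. The 12 proximal tubule markers averaged between 6.36 and 6.59 in control kidneys, 6.23 and 6.58 in mild, 6.03 and 6.85 in moderate and 4.61 and 6.58 in severe kidneys. The lowest of these values belonged to severe kidney 5. The 10 urothelium markers averaged between -1.26 and -0.054 in control and between 1.70 and 3.35 in severe kidneys. The 8 adrenal gland markers averaged above 0 in 2 kidneys, mild 4 (4.23) and moderate 1 (4.22), against -4.13 to -3.19 in controls. Another 6 *mgb-/-* kidneys also lay above the control range, from -2.30 in severe 4 to -0.37 in mild 6. Fibroblast and smooth muscle markers averaged between 2.59 and 3.08 in control, 3.01 and 3.52 in mild, 2.07 and 4.40 in moderate and 2.57 and 4.77 in severe kidneys. Over all *mgb-/-* kidneys 3 of these 8 markers were higher and none lower. Liver markers averaged between -3.12 and -2.53 in control and between -3.07 and -0.36 in mild kidneys, where none of 8 passed and the median difference was 0.72. In severe kidneys 1 of 8 liver markers passed as higher. Collecting duct markers averaged between 2.63 and 2.97 in control and between 3.12 and 3.86 in mild kidneys. They ran from 2.39 to 3.33 in moderate and from 2.44 to 3.72 in severe kidneys. Thick limb and distal tubule markers had group means of 4.08, 4.38, 3.61 and 3.81 in control, mild, moderate and severe kidneys. Leukocyte markers averaged 0.67 in severe 5, against -1.34 to -0.78 in controls. The part of these cell types in the members' differences was not tested.

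Promoter sequences from RefSeq, running from 250 bases before to 50 bases after the annotated gene start (assembly GRCm38.p6), were found for 9 of the 10 members. *Gsta4* was the member without an entry. Both strands were searched for TGACNNNGC, the core of the antioxidant response element, and for TGANTCA, the AP-1 motif. These motifs can overlap, since both begin with TGA. The first occurred in 12.4% of all 32851 promoters and in those of 2 members, *Gsta3* and *Gstm5*. The second occurred in 7.81% of all promoters and also in those of 2 members, *Gstm5* and *Gstp1*. The 4 promoters below are shown because *Gsta2* had the largest rise of the members, *Gsta3* rose and holds the antioxidant core, *Gstp1* fell and holds the AP-1 motif, and *Gstm5*, which holds both, did not pass the test. Capitals mark the matches. They lie at chr9:78347096-78347395 on the minus strand, chr1:21240335-21240634 on the plus strand, chr3:107895604-107895903 on the plus strand and chr19:4037863-4038162 on the minus strand.
Gsta2: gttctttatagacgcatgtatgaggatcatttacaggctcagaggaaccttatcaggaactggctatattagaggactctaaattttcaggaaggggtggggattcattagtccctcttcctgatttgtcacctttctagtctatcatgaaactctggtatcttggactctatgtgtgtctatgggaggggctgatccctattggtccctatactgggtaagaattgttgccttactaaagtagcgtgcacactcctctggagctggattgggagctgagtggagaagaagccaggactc
Gsta3: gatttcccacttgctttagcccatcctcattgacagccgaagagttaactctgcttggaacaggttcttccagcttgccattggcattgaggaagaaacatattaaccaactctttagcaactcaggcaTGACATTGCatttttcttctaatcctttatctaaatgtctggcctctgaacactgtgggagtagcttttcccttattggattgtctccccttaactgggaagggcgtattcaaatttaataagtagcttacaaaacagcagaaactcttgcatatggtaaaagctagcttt
Gstm5: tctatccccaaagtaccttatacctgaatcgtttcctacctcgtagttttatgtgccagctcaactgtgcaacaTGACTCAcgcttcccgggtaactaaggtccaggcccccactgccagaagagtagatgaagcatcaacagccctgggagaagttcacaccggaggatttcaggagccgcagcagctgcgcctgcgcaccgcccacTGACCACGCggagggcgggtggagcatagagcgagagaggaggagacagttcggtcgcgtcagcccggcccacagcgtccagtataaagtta
Gstp1: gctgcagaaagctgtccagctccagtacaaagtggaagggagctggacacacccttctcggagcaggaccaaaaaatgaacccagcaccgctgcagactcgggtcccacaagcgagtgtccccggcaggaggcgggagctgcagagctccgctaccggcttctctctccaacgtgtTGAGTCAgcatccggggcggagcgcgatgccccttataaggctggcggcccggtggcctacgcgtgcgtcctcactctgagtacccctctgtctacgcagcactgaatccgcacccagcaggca
The antioxidant core of *Gsta3* spans bases -121 to -113 and that of *Gstm5* bases -42 to -34 relative to the start. The AP-1 motif spans -176 to -170 in *Gstm5* and -74 to -68 in *Gstp1*. The promoters of *Gsta2*, *Gsto1*, *Gstm1*, *Gstm3*, *Gstt1* and *Gstt3* held neither in this window. A match is a stretch of letters, and no binding was measured.

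The first question was whether *mgb-/-* kidneys differ from control kidneys in these enzymes. Of the 10 members, 4 rose (*Gsta2*, *Gsta3*, *Gsta4* and *Gsto1*), 1 fell (*Gstp1*) and 5 did not pass an adjusted p of 0.05 (limma, Benjamini-Hochberg over all genes). Over all genes tested, 13.1% passed, 5.22% higher and 7.9% lower. The 3 alpha members all rose, whereas none of the 3 mu or 2 theta members passed. Scaling by the median of the array, which puts the median difference of all kept probes at -0.142 in place of 0.014, left *Gsta2* and *Gsta4* past the threshold. Of the genes that passed, 39.8% were higher as reported and 17.6% with that scaling, against 37.9% to 42.8% with the other 3 normalizations. *Gsta2* and *Gsta4* rose at least 2-fold, which 1.82% of all genes did. The median log2 difference of the 10 members was 0.077, against 0.01 over all genes. *Gsta2* and *Gsta4* were named by the study from these same kidneys, so their direction here is not independent evidence. The same holds for *Abcc3*, *Acsm3* and *Slco1a1*, which are described below. Among its sexually dimorphic genes the study listed *Gsta2* and *Abcc3* as female and *Acsm3* and *Slco1a1* as male.

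**Figure D1:**
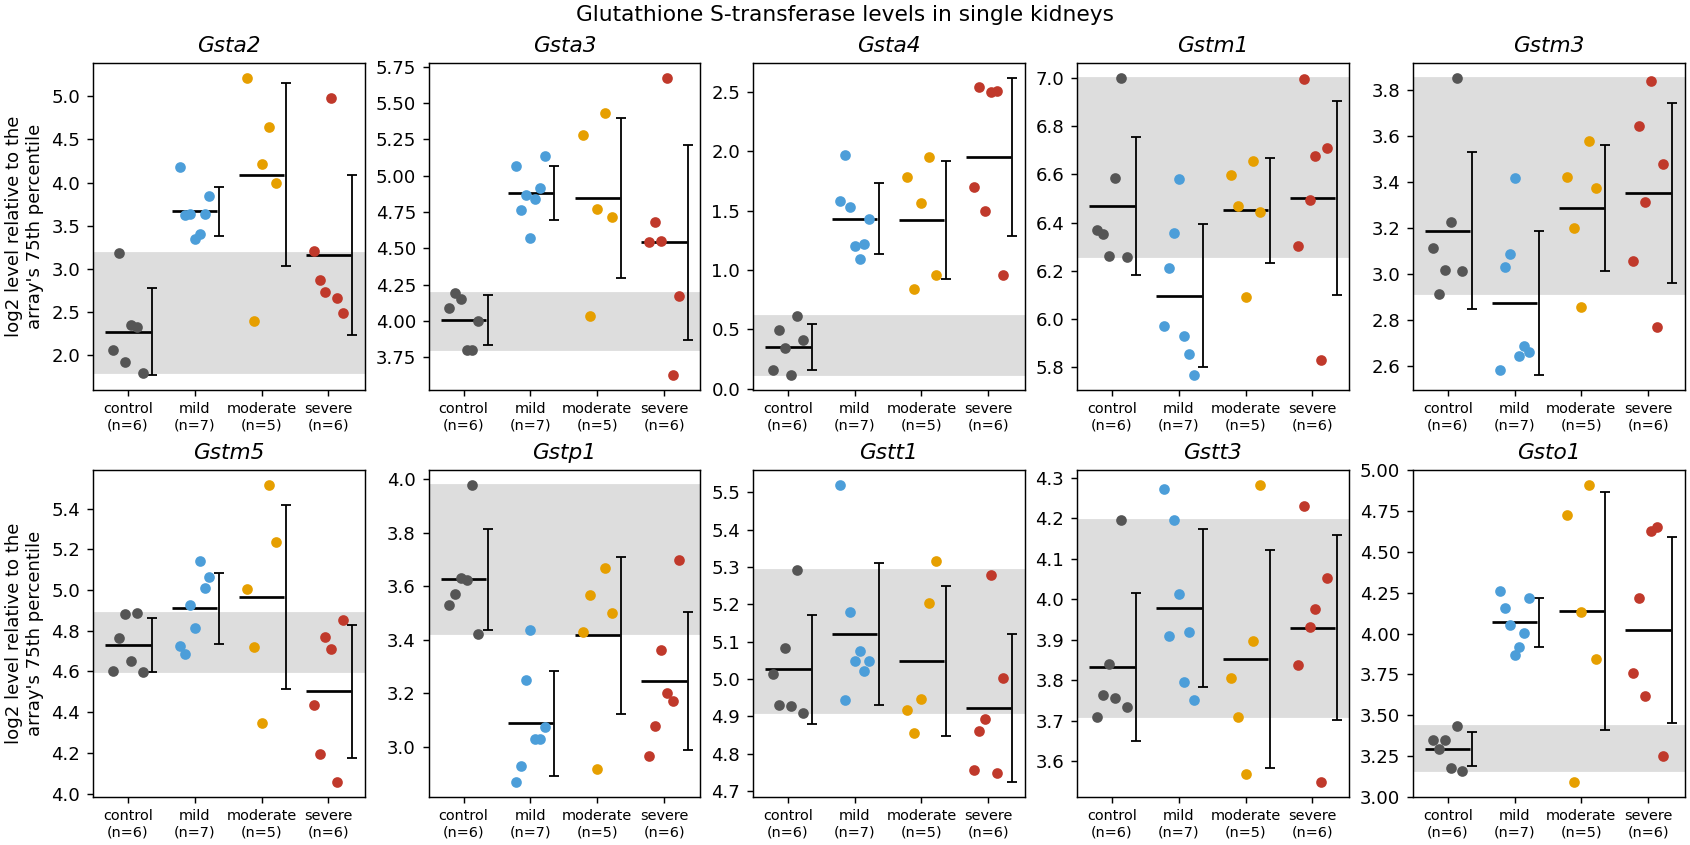
Log2 level of each of the 10 members (relative to the 75th percentile of the array) in every kidney, by group. Points are single kidneys, black lines are group means, bars are SD and the grey band is the range of the 6 control kidneys. For Gsta4 no mgb-/- kidney lies in the grey band, and for Gsto1 16 of 18 lie above it, whereas most points of Gstm1, Gstm3, Gstt1 and Gstt3 lie inside.

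*Gsta4* encodes the alpha enzyme best known for conjugating 4-hydroxynonenal, an aldehyde product of lipid peroxidation. Its level in control kidneys ran from 0.12 to 0.61 with a median of 0.38. Mild kidneys ran from 1.09 to 1.97 (median 1.43), and severe kidneys from 0.96 to 2.54 (median 2.10). The 5 moderate kidneys had levels of 1.78, 0.84, 1.56, 1.95 and 0.96. Every one of the 18 *mgb-/-* kidneys therefore lay above every control kidney. The means were 1.60 ± 0.53 (SD, n = 18) and 0.35 ± 0.19 (n = 6), a log2 difference of 1.25 (SE 0.22, 2.37-fold, adjusted p = 0.00156). *Gsta4* was the only member that passed in all 3 grades as reported. Its moderate call held in only 12 of 36 alternatives (other processing or kidneys left out), against 34 in mild and 36 in severe kidneys. The differences from control were 1.08 in mild (SE 0.24, adjusted p = 0.0115), 1.06 in moderate (SE 0.26, adjusted p = 0.0473) and 1.60 in severe kidneys (SE 0.25, adjusted p = 5.09e-04). Severe exceeded mild kidneys by 0.52 (95% confidence interval 0.019 to 1.02), which did not pass the adjustment (adjusted p = 0.445). Within the 3 slides, *mgb-/-* exceeded control kidneys by 1.61, 0.92 and 1.20.

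*Gsta2* encodes an alpha enzyme with peroxidase activity towards lipid hydroperoxides. Control kidneys had levels from 1.79 to 3.19 with a median of 2.19. Levels ran from 3.34 to 4.19 (median 3.63) in mild and from 2.48 to 4.98 (median 2.80) in severe kidneys. The moderate kidneys had 5.21, 2.39, 4.22, 4.65 and 3.99. All 7 mild and 4 of 5 moderate kidneys lay above the highest control, but only 2 of 6 severe kidneys did. The severe group held 1 high kidney, severe 4, whose level of 4.98 was followed by 3.21 in severe 1. The overall difference was 1.34 (SE 0.35, 2.54-fold, adjusted p = 0.0153). By grade it was 1.40 in mild (SE 0.39, adjusted p = 0.0362), 1.82 in moderate (SE 0.42, adjusted p = 0.0393) and 0.88 in severe kidneys (SE 0.40, adjusted p = 0.136), the last being 0.52 without severe 4. Severe lay below moderate kidneys by a log2 difference of -0.94 (95% confidence interval -1.81 to -0.060, adjusted p = 0.462). Slides gave unequal differences of 1.81, 0.38 and 1.84. With slide as a block the overall rise remained past the threshold.

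*Gsta1*, a close relative of *Gsta2* on the same chromosome, moved with it almost exactly. It rose by 1.36 (SE 0.33, adjusted p = 0.0114), and its deviations over the 24 kidneys followed those of *Gsta2* with r = 0.98. The coding sequences of this pair are very similar, so their probes may read each other's transcripts, and the 2 values were not treated as separate rises.

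*Gsta3* encodes the alpha enzyme that in mice also conjugates aflatoxin epoxide. Control kidneys ranged from 3.80 to 4.19 (median 4.04). Mild kidneys ranged from 4.57 to 5.13 (median 4.87) and severe kidneys from 3.63 to 5.67 (median 4.54). The moderate kidneys had 5.28, 4.04, 4.77, 5.43 and 4.72. In all, 15 *mgb-/-* kidneys lay above the control range, moderate 2 and severe 6 lay inside it and severe 5 lay below it. The difference was 0.75 (SE 0.20, 1.68-fold, adjusted p = 0.0188). It passed in mild (0.87, SE 0.24, adjusted p = 0.0333) and not in moderate (0.84, SE 0.26, adjusted p = 0.098) or severe kidneys (0.54, SE 0.25, adjusted p = 0.142). Without severe 4 the severe difference was 0.31. Severe 5, the kidney below the control range, was also the one with the lowest proximal tubule markers. In a whole kidney, fewer tubule cells and less mRNA per cell cannot be told apart. A second, dimmer *Gsta3* probe followed the first over kidneys (r = 0.96) and differed by 0.52 (SE 0.19), which did not pass over all probes (adjusted p = 0.0677). Within the slides the first probe differed by 1.08, 0.43 and 0.75.

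*Gsto1* encodes an omega class enzyme, which reduces dehydroascorbate and methylated arsenic rather than forming typical conjugates. Its control levels were the tightest of the risers, from 3.16 to 3.43 (median 3.32). Mild kidneys ran from 3.87 to 4.26 (median 4.05) and severe kidneys from 3.25 to 4.65 (median 3.99). The moderate kidneys had 4.73, 3.09, 4.13, 4.91 and 3.84. Thus 16 of 18 *mgb-/-* kidneys exceeded every control, severe 6 lay in the control range and moderate 2 lay just below it. The SD over *mgb-/-* kidneys (0.48) was 4.52 times that over controls (0.11). The overall difference was 0.78 (SE 0.20, 1.72-fold, adjusted p = 0.0132). Each grade differed by a similar amount without passing on its own, by 0.78 in mild (SE 0.24, adjusted p = 0.0595), 0.85 in moderate (SE 0.26, adjusted p = 0.0996) and 0.73 in severe kidneys (SE 0.25, adjusted p = 0.0513). Within slides the differences were 1.11, 0.52 and 0.72.

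*Gstp1*, which encodes the pi class enzyme known for binding and restraining the stress kinase JNK, was the only member to fall. Controls ran from 3.42 to 3.98 (median 3.60). Mild kidneys ran from 2.87 to 3.44 (median 3.03) and severe kidneys from 2.97 to 3.70 (median 3.19). The moderate kidneys had 3.43, 3.57, 2.92, 3.67 and 3.50. Below the lowest control lay 6 of 7 mild and 5 of 6 severe kidneys, but only 1 of 5 moderate kidneys. The difference was -0.39 (SE 0.12, adjusted p = 0.0353), or 1.31-fold lower. By grade it was -0.54 in mild (SE 0.13, adjusted p = 0.0213), -0.21 in moderate (SE 0.15, adjusted p = 0.457) and -0.38 in severe kidneys (SE 0.14, adjusted p = 0.0656). Without moderate 3 the moderate difference was -0.0845. The slides gave -0.32, -0.52 and -0.35. Its second probe differed by -0.39 too (SE 0.15, adjusted p = 0.0817 over all probes) and followed the first with r = 0.93. *Gstp1* has near-identical neighbours on chromosome 19, among them *Gstp2* (-0.23, SE 0.10, adjusted p = 0.153), so probes of this class may share signal. The fall passed in 26 of 36 alternatives. It was lost without any of controls 1 to 5 (-0.32 to -0.41, adjusted p = 0.0549 to 0.105), by quantile normalization (-0.27, adjusted p = 0.0914) and in the authors' table (-0.26, adjusted p = 0.0866).

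**Figure D2:**
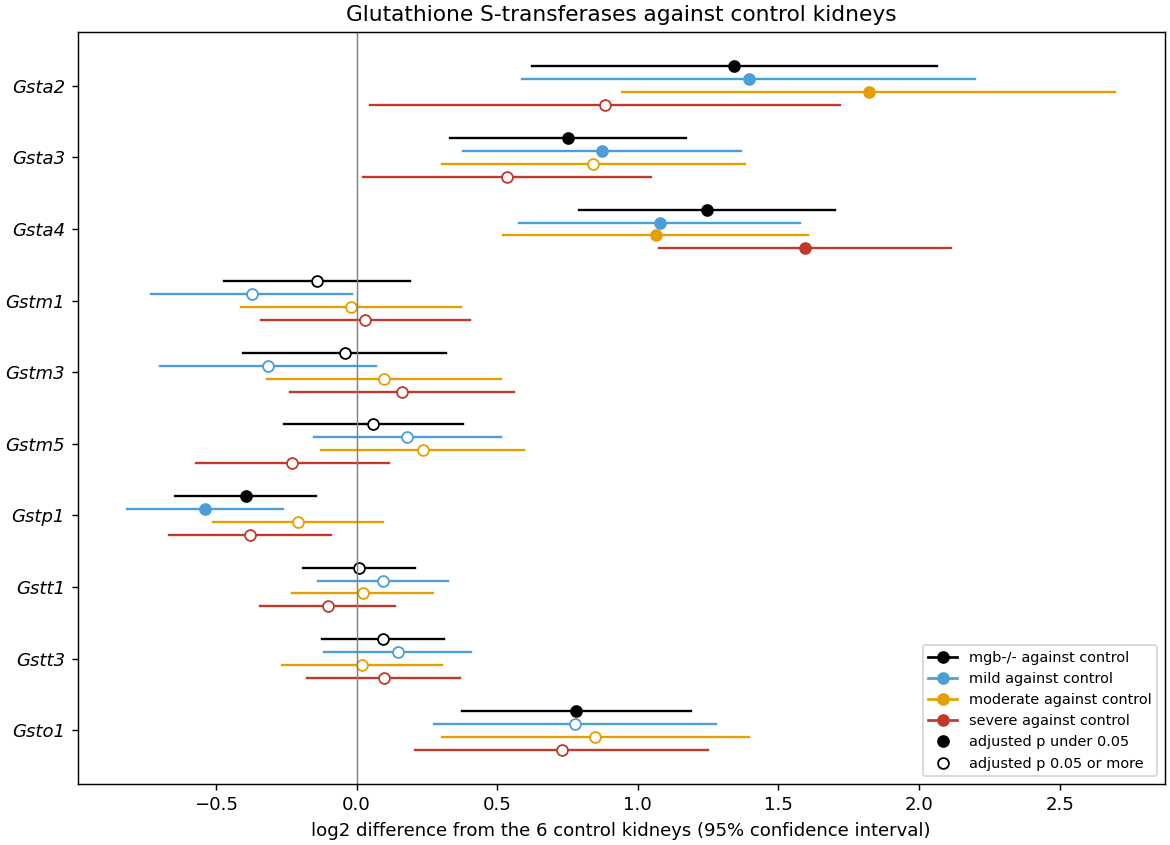
Log2 difference from the 6 control kidneys for each member, for all 18 mgb-/- kidneys (black) and for each grade (colours), with 95% confidence intervals from limma. Filled points passed an adjusted p of 0.05. The alpha members and Gsto1 lie to the right of 0 in every grade, Gstp1 lies to the left, and Gsta4 is filled in all 4 comparisons.

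Among the members that did not pass, the mu class enzymes *Gstm1*, *Gstm3* and *Gstm5* differed by -0.14 (95% confidence interval -0.47 to 0.19), -0.042 (-0.40 to 0.32) and 0.059 (-0.26 to 0.38). Mu enzymes conjugate epoxides and quinones. The theta enzymes *Gstt1* and *Gstt3*, which handle small halogenated compounds among other substrates, differed by 0.0081 (-0.19 to 0.21) and 0.094 (-0.12 to 0.31). All 5 intervals leave out a 2-fold difference. Single kidneys moved these small values, *Gstm1* being -0.034 and *Gstt3* 0.17 without control 5, and *Gstm5* 0.10 without severe 5 and 0.017 without moderate 4. The signs of *Gstm3*, *Gstm5*, *Gstt1* and *Gstt3* changed with the normalization or the way probes were combined. *Gstm1* ran from 6.26 to 7.00 in control and from 5.77 to 6.58 in mild kidneys, 5 of which lay below every control, while moderate (6.60, 6.47, 6.09, 6.65 and 6.44) and severe kidneys (5.83 to 7.00, median 6.59) mostly shared the control range. *Gstm3* showed the same arrangement, with a mild median of 2.69, a control median of 3.06 and a severe median of 3.40. *Gstm5* was arranged the other way in mild and severe kidneys, with medians of 4.93 in mild, 4.71 in control and 4.57 in severe kidneys. Its moderate levels were 5.01, 4.72, 4.35, 5.52 and 5.23. Their mean of 4.97 lay above the mild mean of 4.91, so *Gstm5* did not fall step by step with grade. *Gstt1* had medians of 4.97, 5.05, 4.95 and 4.88 in control, mild, moderate and severe kidneys, and *Gstt3* had 3.76, 3.92, 3.81 and 3.95. The second *Gstm3* probe was well above background on only 8 arrays and did not follow the first (r = 0.082).

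Comparing the grades with each other asks whether these enzymes follow the degree of hydronephrosis. No member passed for severe against mild, moderate against mild, severe against moderate or the slope on grade (coded 1, 2 and 3). Few genes did so at all, 0.576% for severe against mild, 0% for moderate against mild, 0.00715% for severe against moderate and 0.232% for the slope. At an unadjusted p of 0.05, 4 of 10 members differed between severe and mild kidneys (10.8% of all genes), 2 between moderate and mild (6.6%), 2 between severe and moderate (10.2%), and 3 along the slope (8.4%). For severe against mild these were *Gstm3* (0.48, SE 0.18, adjusted p = 0.346), *Gstm1* (0.40, SE 0.17, adjusted p = 0.397), *Gsta4* (0.52, SE 0.24, adjusted p = 0.445) and *Gstm5* (-0.41, SE 0.16, adjusted p = 0.349). Against controls, 4 members passed in mild kidneys (background 5.93%), 2 in moderate (1.19%) and 1 in severe kidneys (15.7%). The moderate group is the smallest and these 3 comparisons share their control kidneys, so the counts do not measure a decline with grade. Apart from *Gsta4* in mild (0.0115) and severe kidneys (5.09e-04), the adjusted p of these calls lay between 0.0213 and 0.0473. The count for mild kidneys was 2 without control 1, 3, 4 or 6 or mild 1, 3, 5, 6 or 7, and 1 without control 5 or mild 2. For moderate kidneys it was 0 without control 1, 3, 4, 5 or 6, mild 6 or moderate 1, 3 or 4, it was 1 without control 2, mild 1, 2, 3, 4, 5 or 7 or severe 1 or 3, and it was 4 without moderate 2. For severe kidneys it was 2 without moderate 1, 2, 3 or 4 or severe 3 or 5, and 3 without severe 6.

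The members that rose did so unevenly from kidney to kidney. Moderate 2 and severe 6 lay within or just below the control range of *Gsta2* (2.39 and 2.48), *Gsta3* (4.04 and 4.17) and *Gsto1* (3.09 and 3.25), and had the 2 lowest *mgb-/-* levels of *Gsta4* (0.84 and 0.96). Their *Gstp1* levels, 3.57 and 3.70, lay in the control range, as did those of mild 4 and moderate 1, 4 and 5. The *Gsta2* levels of severe 2, 3 and 5 also lay in the control range. For *Gsta4*, moderate 5 (0.961) lay close to severe 6 (0.955). Moderate 2 and severe 6 kept the mRNA of *Gstp3*, a further pi class gene beside *Gstp1* and *Gstp2*. *Gstp3* is not among the 10 members and was picked after its values were seen. *Gstp3* had levels of 1.18 to 1.74 in controls, 1.46 in moderate 2 and 1.60 in severe 6. The other 16 *mgb-/-* kidneys ran from -6.00 to -0.62, all below the lowest control. Over all *mgb-/-* kidneys *Gstp3* was lower (adjusted p = 0.00321). Its probe was well above background on only 10 of 18 *mgb-/-* arrays, so the size of the difference depends on how dim spots are treated, and the log2 difference was -5.22 as processed here, -3.91 in the authors' table and -3.48 with normexp. The arrangement was not limited to GST genes. *Acsm3*, an acyl-CoA synthetase also picked after its values were seen, had levels of 6.81 in moderate 2 and 6.77 in severe 6, against 6.06 to 7.01 in controls and at most 4.93 in the other *mgb-/-* kidneys. *Slco1a1*, an organic anion transporter picked likewise, had 3.22 and 3.13, against 2.58 to 3.60 in controls and at most 1.25 in the others. Urothelium markers averaged 0.97 in moderate 2 and 1.70 in severe 6, proximal tubule markers 6.48 and 6.43, and adrenal markers -3.53 and -3.44. The part of these cell types in the *Gstp3* pattern was not tested.

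**Figure D3:**
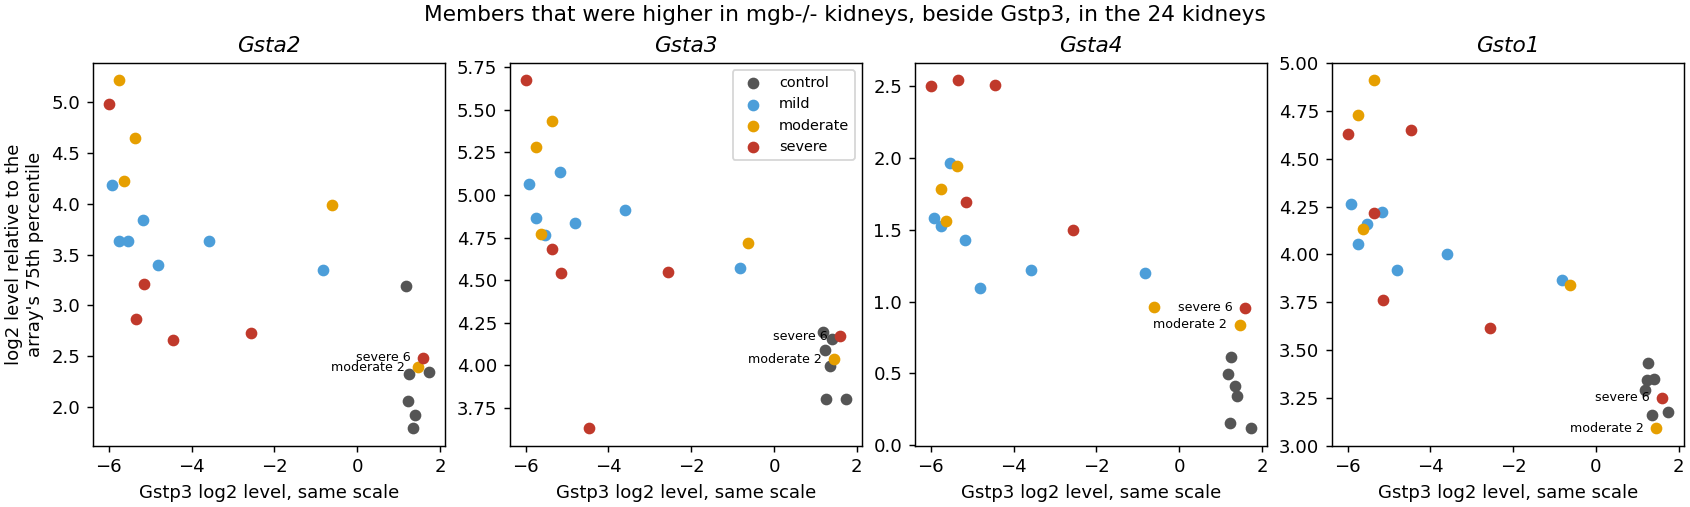
Log2 level of the 4 members that rose (y axes) against the log2 level of Gstp3 (x axis, same scale relative to the 75th percentile) in the 24 kidneys, coloured by group. Gstp3 levels under about -4 are mostly not well above background and have no order. Moderate 2 and severe 6 sit at Gstp3 levels of 1.46 and 1.60, beside the 6 control kidneys, within the control range of Gsta2 and Gsta3, above it for Gsta4 (0.84 and 0.96) and within or just below it for Gsto1 (3.25 and 3.09).

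To see which members vary together, the 45 pairs were correlated over the 18 *mgb-/-* kidneys, each level taken as its deviation from the mean of its grade. With permutation tests (100000 resamples, two-sided, adjusted over the 45 pairs), 7 pairs passed by Pearson's r, all positive, and 6 of these also by Spearman's rho. *Gstm1* and *Gstm3*, which lie close together on chromosome 3, gave r = 0.92 and rho = 0.91 (adjusted p = 0.000225 for both, from the smallest p the resamples allow). *Gsta4* and *Gsto1* gave r = 0.88 and rho = 0.92 (adjusted p = 0.000225). *Gsta2* and *Gsta3* gave r = 0.89 and rho = 0.82 (adjusted p = 3e-04 and 0.00135), and r = 0.75 without the 2 kidneys farthest from the median. *Gsta2* and *Gsto1* gave r = 0.76 and rho = 0.62 (adjusted p = 0.00382 and 0.0457). The theta neighbours *Gstt1* and *Gstt3* gave r = 0.66 and rho = 0.73 (adjusted p = 0.0239 and 0.00945). *Gstm1* with *Gstt3* (r = 0.64, rho = 0.70, adjusted p = 0.0283 and 0.0158) fell to r = 0.44 without the 2 farthest kidneys, and *Gstm5* with *Gstp1* (r = 0.63, rho = 0.59, adjusted p = 0.034 and 0.0572) to r = 0.42. With quantile normalization *Gstt1* with *Gstt3* (r = 0.48), *Gstm1* with *Gstt3* (0.45) and *Gstm5* with *Gstp1* (0.35) no longer passed, the last also not on levels without the grade mean removed (0.45), where *Gstm1* with *Gstt3* (0.43) also did not. Over all 45 pairs r ran from -0.44 to 0.92 with a median of 0.29. The arrays share a scaling step, which can add to any of these values.

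**Figure D4:**
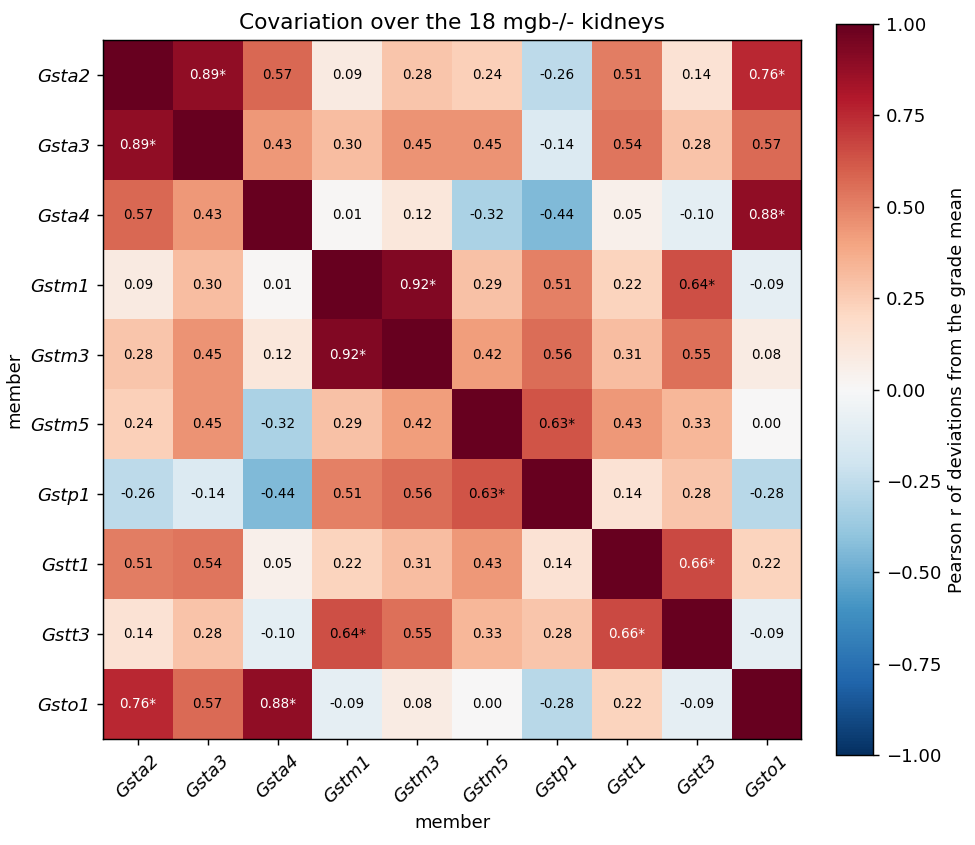
Pearson r between each pair of members over the 18 mgb-/- kidneys, computed on deviations from the grade mean. An asterisk marks an adjusted p under 0.05 by permutation. Gstm1 with Gstm3, Gsta2 with Gsta3 and Gsta4 with Gsto1 are the 3 highest values (0.92, 0.89 and 0.88).

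The genes most like each member were sought by Pearson's r of deviations over all 24 kidneys among 27634 genes measured in every kidney, as a description without a test. *Gsta4* was most like *Fam3c* (r = 0.93), *Krt7* (0.92), a keratin of simple and urothelial epithelium, and *Krt81* (0.92). *Gsto1* was most like *Arhgap8* (0.93), *Oas1c* (0.93) and *Spp1* (0.91), which encodes osteopontin. *Gsta3* was most like *Oat* (0.92), the mitochondrial ornithine aminotransferase, *Fbxo44* (0.92) and *Tmem38a* (0.91). *Gstm1* was closest to *Gstm3* (0.93), and *Gstm4* was among the nearest of both, at 0.90 with *Gstm1* and 0.95 with *Gstm3*. The likeness of mu genes may include shared probe signal. These correlations come from the same 24 arrays and include the scaling of each array.

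Because *Gsta4* and *Krt7* moved alike and the urothelium markers were highest in severe kidneys, 20 relations were computed after the values were seen, between each member and the mean level of the urothelium and proximal tubule markers over the 18 *mgb-/-* kidneys (deviations from the grade mean, permutation tests). None passed the adjustment by either measure. *Gsta4* had r = 0.58 and rho = 0.57 with the urothelium markers (p = 0.0118 and 0.0147, adjusted 0.0842 and 0.0828), and r = 0.49 without the 2 farthest kidneys. With the proximal tubule markers it had r = -0.53 and rho = -0.61 (p = 0.021 and 0.0078, adjusted 0.0842 and 0.0828), and r = -0.81 without the 2 farthest kidneys. *Gstm5*, *Gstt1* and *Gstt3* ran the other way with the proximal tubule markers, at r = 0.58, 0.55 and 0.55 (adjusted p = 0.0842 for each by permutation), and at 0.50, 0.48 and 0.41 without the 2 farthest kidneys. *Gsta3* had r = 0.42 and rho = 0.011 with these markers (adjusted p = 0.183 and 0.968 by permutation), and r = -0.42 without the 2 farthest kidneys. In mild kidneys no urothelium marker of the 10 passed against control, but 8 were positive and 2 negative, with a median difference of 0.40. The mean of the markers ran from -1.19 to 1.26 in these kidneys. *Gsta4* was higher in every mild kidney than in every control, and the part of urothelium in that difference was not tested. Against control, 3 of 10 urothelium markers rose over all *mgb-/-* kidneys and 9 of 10 in severe kidneys. Of the 12 proximal tubule markers, none passed in *mgb-/-* kidneys and 1 passed as lower in severe kidneys. Without regard to the threshold, all 12 lay below control in severe kidneys (median difference -0.47), and 8 of 12 did over all *mgb-/-* kidneys.

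A list of 16 further GST genes was examined, of which 15 were tested. It is not the whole family, and *Gstp3*, described above, is outside it. In *mgb-/-* kidneys 2 of the 15 passed as higher (5.22% of all genes) and none as lower (7.9%). They were *Gsta1* and the microsomal enzyme *Mgst1* (0.83, SE 0.26, adjusted p = 0.0372). The *Gsta1* probe may read *Gsta2*, as said above, so only *Mgst1* counts as a rise apart from the members. The median difference of the list was 0.20. Only 1 passed without control 1, 3, 4, 5 or 6, mild 2 or moderate 3, by median scaling or without a filter on dim probes, and 4 passed without severe 5. *Mgst2* had the largest difference, 1.91 (SE 0.70), and did not pass over all *mgb-/-* kidneys (adjusted p = 0.0708), while in severe kidneys it was higher by 2.51 (SE 0.85, adjusted p = 0.0471).

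The steps before and after conjugation were examined with 5 further lists. For comparison, 5.22% of all genes passed as higher in *mgb-/-* kidneys and 7.9% as lower. Of 14 tested genes of glutathione synthesis and recycling, 3 were lower in *mgb-/-* kidneys and none higher, and the median difference was -0.25. They were *Gss*, glutathione synthetase (-0.68, SE 0.21, adjusted p = 0.0362), *Chac2*, which degrades glutathione (-0.61, SE 0.19, adjusted p = 0.0341), and *Gclm*, the modifier subunit of the rate-limiting ligase (-0.50, SE 0.14, adjusted p = 0.0259). The list thus holds 1 enzyme of breakdown among the 3 that fell. Without single controls the count was 1 (control 1, 4 or 6) or 0 (control 2 or 3). *Gclc*, the catalytic subunit, differed by -0.37 (SE 0.21, adjusted p = 0.258).

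Of 12 tested genes of the mercapturate pathway, 5 were lower and 1 was higher, with a median of -0.68. *Cndp2*, a cytosolic dipeptidase, differed by -2.00 (SE 0.42, adjusted p = 0.00515) and lay below every control in 16 of 18 kidneys. *Nat8*, the N-acetyltransferase that completes the mercapturate, differed by -1.03 (SE 0.33, adjusted p = 0.0411). *Ggt1*, the brush border γ-glutamyltransferase that takes the first step, differed by -0.87 (SE 0.27, adjusted p = 0.036), and *Lap3*, an aminopeptidase, by -0.83 (SE 0.19, adjusted p = 0.00902). *Kyat1*, a cysteine conjugate β-lyase, made up the 5, and *Ggt6* was the gene that was higher. A β-lyase is not a step of mercapturate formation, so the 5 are not all such steps. The total of 6 was 3 without control 1, 2 or 6 and 2 without control 3 or 4. None of the 12 proximal tubule markers passed in the same comparison, and their median difference was -0.15, with 8 negative and 4 positive. They ran from -0.96 (*Slc22a6*, SE 0.34, adjusted p = 0.0649) to 0.17 (*Slc22a8*, SE 0.30, adjusted p = 0.751). The part of tubule cells in the differences of the mercapturate list was not tested.

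Of 7 conjugate export pumps, 3 were higher and none lower, with 1 passing by median scaling. *Abcc3*, a pump of the basolateral membrane, was higher by 2.95 (SE 0.52, adjusted p = 0.00148) and exceeded every control in 16 of 18 kidneys. *Abcc1* was higher by 0.58 (SE 0.14, adjusted p = 0.0125) and *Abcc5* by 0.31 (SE 0.098, adjusted p = 0.0385), whereas *Abcc2*, the apical pump of the proximal tubule, differed by -0.39 (SE 0.21, adjusted p = 0.23). Of 7 glutathione peroxidases, *Gpx2*, an epithelial form, was higher (1.17, SE 0.37, adjusted p = 0.041) and the other 6 did not pass. *Gpx2* was among the calls that depend on the processing, no peroxidase passing by quantile normalization, median scaling, normexp, slide as a block, without a filter on dim probes or in the authors' table, nor without any of controls 1 to 5, mild 2, moderate 1, 3 or 4 or severe 1, 2 or 3, while 2 passed without moderate 5. Of 10 genes for Nrf2 and its other targets, 2 were higher and 1 lower. The quinone reductase *Nqo1* was higher by 0.91 (SE 0.16, adjusted p = 0.00158) and exceeded every control in 17 of 18 kidneys, *Cbr3* was higher by 0.77 (SE 0.23, adjusted p = 0.0289), and *Keap1*, which targets Nrf2 for degradation, was lower (-0.33, SE 0.082, adjusted p = 0.0124). *Nfe2l2*, which encodes Nrf2 itself, differed by 0.28 (SE 0.10, adjusted p = 0.0755), and *Hmox1*, a further target, by 0.52 (SE 0.34, adjusted p = 0.335).

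**Figure D5:**
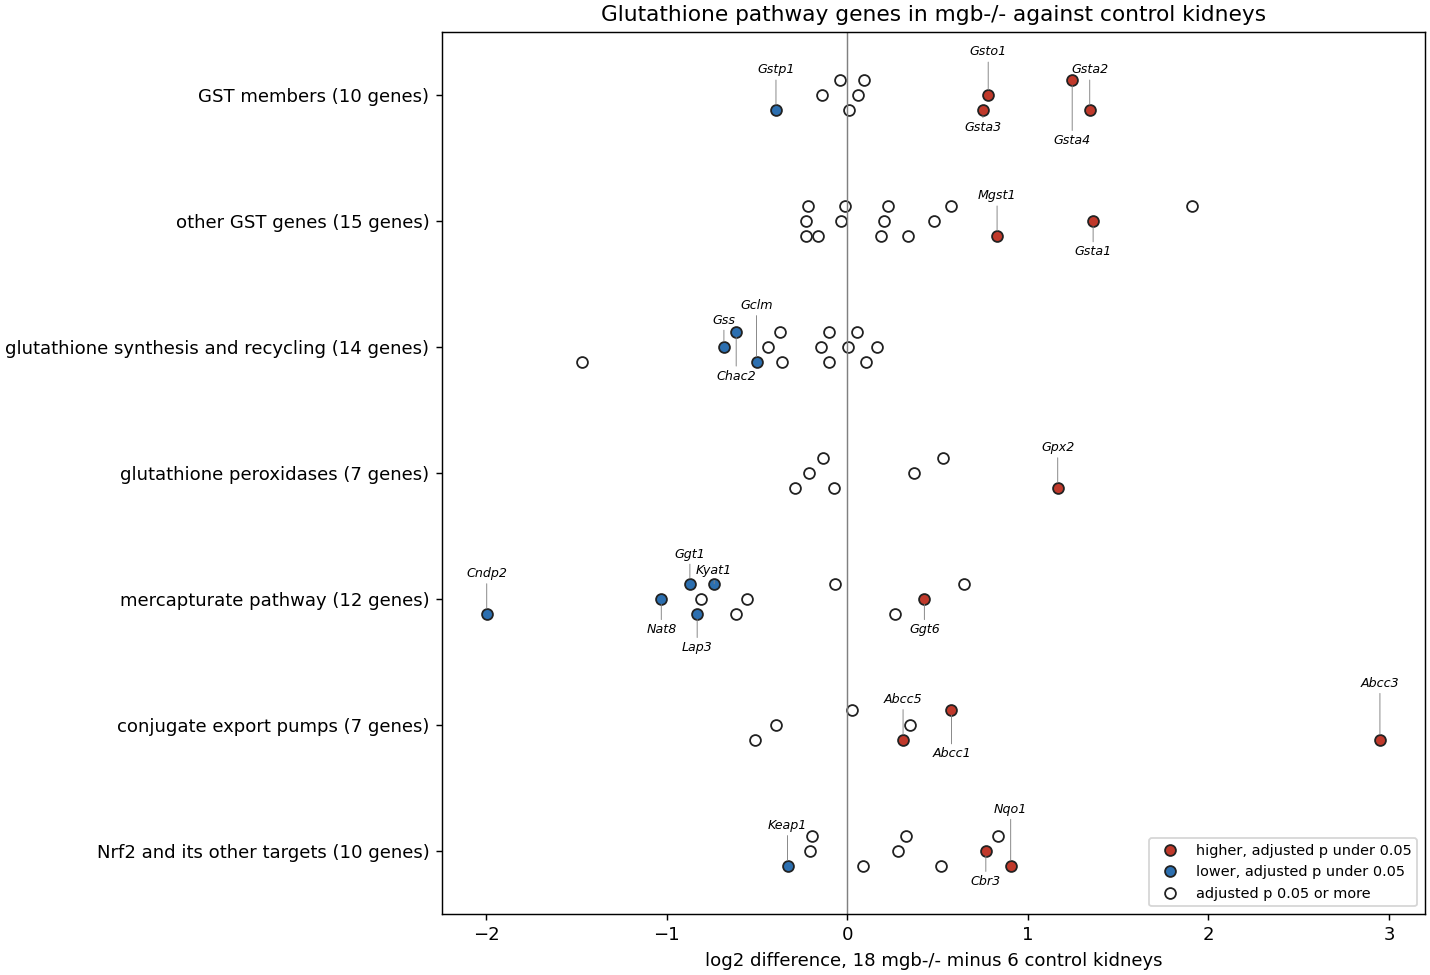
Log2 difference between 18 mgb-/- and 6 control kidneys for the genes of 7 glutathione lists, 1 point per gene, with the genes that passed an adjusted p of 0.05 filled and named (vertical offsets within a row have no meaning). Passing genes of synthesis lie at or below -0.50, those of the mercapturate list reach -2.00 (Cndp2), and Abcc3 lies farthest to the right at 2.95.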

How the data were processed

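RNA of 24 whole kidneys was read on Agilent 8x60K mouse arrays with a single dye, 1 kidney per array. The authors deposited the spot intensity of each array from Agilent Feature Extraction 10.10, with background subtracted and no normalization between arrays, and a table of intensities normalized between arrays by a method not given in the sources used here. Here the deposited processed intensity was taken as log2 minus the 75th percentile of its array. Of 55681 probes, 38834 were well above background in 5 or more kidneys and were kept, and no spot was saturated. Probes were named through RefSeq accessions (GRCm38.p6), and the probe with the highest mean stood for its gene. Groups came from the sample labels.

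The models were fitted in limma (version 3.58.1, R 4.3.3), with a 2-group fit for all *mgb-/-* kidneys and a 4-group fit for the grades, and the Benjamini-Hochberg adjustment ran over 27958 genes. Steps were tested on simulated data. Of each pathway list up to 4 genes that passed with the largest differences were named, and other named genes stand beside a count or were picked after their values were seen. The members, lists and tests were chosen with earlier results of these data known. The number of arrays limits the precision. Alternatives were other normalizations (normexp ran on the median signal, the planned mean signal not being used here), filters, blocks, weights and thresholds, and the omission of each kidney. Plots used matplotlib 3.10.9 (Python 3.11).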

Additional observations from a re-analysis of the deposited data

Results flagged for a closer look

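In each of the 40 sets of values (10 members in 4 groups), the highest and lowest kidney were compared with the rest of their group by Dixon's test, and 4 values stood apart, where chance gives about 1 in 20 sets. *Gsta2* in severe 4 was 4.98, with the next severe kidney at 3.21 and the lowest at 2.48. *Gstm3* in control 5 was 3.85 (next 3.22), and *Gstt3* in the same kidney was 4.20 (next 3.84), which raises both control means. *Gstt1* in mild 1 was 5.52 (next 5.18).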

How the results depend on the processing

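The rises of *Gsta2* and *Gsta4* in *mgb-/-* kidneys passed in all 36 alternatives, those of *Gsta3* and *Gsto1* in 35 each and the fall of *Gstp1* in 26. Scaling by the median left 2 members past the threshold in *mgb-/-* (5 as reported), 0 in mild (4) and 0 in moderate kidneys (2), with *Gsta3* at 0.60 (adjusted p = 0.0714), *Gsto1* at 0.62 (adjusted p = 0.0725) and *Gstp1* at -0.55 (adjusted p = 0.0547). A 2-fold minimum left 2 in *mgb-/-* and 2 in mild kidneys. In moderate kidneys the count was 4 at an adjusted p under 0.1, 4 with array weights, 1 with slide as a block, and 0 without a filter on dim probes, on the groups compared alone, or without the 2 kidneys with high adrenal markers (mild 4 and moderate 1), an alternative chosen after seeing the data that left the other counts at 5, 4 and 1. In severe kidneys (1 as reported) it was 3 at an adjusted p under 0.1, 2 by quantile normalization, 2 by normexp, 3 in the authors' table, 3 with probes well above background on all arrays, 2 with slide as a block and 4 with array weights. Leaving out single kidneys gave 4 to 5 members in *mgb-/-*, 1 to 5 for the mild grade, 0 to 4 for the moderate and 1 to 3 for the severe, and 0 to 0 between grades and for the slope. The cause of these changes was not tested. The number of arrays limits what small differences can be called.

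With the replicate number as a block, 4 members passed in *mgb-/-* kidneys (*Gstp1* did not, adjusted p = 0.0765), and against control the counts by grade were 0 (mild), 0 (moderate) and 1 (severe). Of the lists, 0 genes of synthesis, 2 of the mercapturate pathway, 0 peroxidases and 1 further GST passed. Same-numbered kidneys of different groups did not deviate together (33 pairs, r from -0.55 to 0.65, median 0.005), and 6 of 24 kidneys matched their own number best. By slide, 13 of 24 kidneys matched best on their own slide. Pairs of different numbers had a median r of 0.081 on the same slide and -0.037 on different slides. For same-numbered pairs these medians were 0.009 and -0.009.

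Over all *mgb-/-* kidneys the direction changed for 4 members near 0. Scaling by the median gave *Gstm5* -0.097, *Gstt1* -0.15 and *Gstt3* -0.063, and normexp gave *Gstt1* -0.0049. *Gstm3* was 0.084 by quantile normalization, 0.11 in the authors' table and 0.25 with the mean of its probes. Leaving out single kidneys, *Gstm3* ran from -0.097 to 0.091 and *Gstt1* from -0.020 to 0.062.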
